A study of Homo sapiens with 14 samples.

Results

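Extra SKI peaks are the regions that chromatin immunoprecipitation with sequencing assigned to SKI in 1 library of unmodified HL60 cells and in no other SKI library analysed. They were chosen as peaks of unmodified cells, replicate 1, that share no base with a peak of unmodified cells, replicate 2, or of CRISPR/Cas9 control cells. There were 38710 of them among the 54841 peaks of replicate 1 (70.6%, 95% Wilson interval 70.2 to 71.0), out of 88872 peaks in the 4 lists used. The other 16131 peaks of replicate 1 overlapped a peak of replicate 2 or of control cells by at least 1 bp and are called recurring here. HL60 is a human acute myeloid leukaemia cell line. Its unmodified cells (genotype WT) gave the 2 SKI lists and 1 RUNX1 list, and cells labelled CTR-1, a CRISPR/Cas9 control, gave the third SKI list. Whether CTR-1 is 1 clone is not given in the sources used here. The other 10 of the 14 samples, among them SKI libraries of cells with SKI deleted, were not analysed here, so how much of an extra peak comes from SKI itself was not tested. Nothing in the labels says that the libraries came from separate cultures.

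SKI is a nuclear corepressor that is brought to chromatin mainly by partner proteins, most of all the SMAD proteins that carry TGF-beta signals, and it recruits the NCOR, SIN3 and histone deacetylase complexes. In myeloid cells it also associates with RUNX1, a DNA-binding factor needed for blood cell formation, and with retinoic acid receptors.

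The 3 SKI lists were of unequal length. Replicate 2 held 14431 peaks and the control cells held 14019, and 97.4% and 97.5% of these overlapped a peak of replicate 1. The extra peaks are thus regions listed in the longest list alone. Total library depth is not given in the sources used here, and a region with no peak has no value in a list, so the signal of the other 2 libraries at extra peaks was not measured. Whether depth moved with the length of the lists was not tested. Wilson and Newcombe intervals below cover counting error over peaks of 1 library, not the spread between cultures, and no p-value is given over peaks.

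Extra peaks were the weaker peaks of replicate 1. Their tags, the sequenced fragments counted in a peak, had a median of 66 (10th to 90th percentile 38 to 173), against 332 (141 to 794) for recurring peaks, a ratio of 0.199. For comparison, the median peak of replicate 2 held 56 tags and that of control cells 61, and 59.9% and 54.4% of extra peaks held more than these. Raw tags of libraries of unknown depth are not on a common scale. Per kb of peak, the median was 107.9 tags in extra peaks, 117.1 in replicate 2 and 86.7 in control cells. Median fold enrichment over background, the authors' own value for a peak, was 14.9 in extra and 40.8 in recurring peaks. Extra peaks were narrower, with a median width of 600 bp against 1295 bp, and less dense, with 107.9 against 250 tags per kb in recurring peaks. A wide peak meets another peak more easily, so width is tied to the rule that chose the members. Together extra peaks held 34.0% of the 10241078 tags counted in peaks of replicate 1.

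The share of extra peaks dropped steadily as tags increased. Of replicate 1 peaks with under 50 tags 99.5% were extra, and of those with 50 to under 100 tags 96.4% were. The share was 75.4% at 100 to under 200 tags, 28.3% at 200 to under 400 and 2.55% (165 of 6475) at 400 tags or more. A small strong tail remained. In the highest of 10 classes of replicate 1 by fold enrichment, from 58.4 upwards, 628 of 5484 peaks (11.5%, 10.6 to 12.3) were extra, and 2162 extra peaks (5.59%) exceeded the median fold enrichment of recurring peaks. When replicate 1 was cut to the length of replicate 2, keeping the peaks of highest significance, 2471 of 14431 were extra. In the full list 38710 of 54841 were. The cut drops the peaks of lowest significance, which are mostly extra, so a lower extra share was built into it. Whether the length of the list itself accounts for extra peaks was not tested.

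At the border of the rule, the 119 extra peaks within 100 bp of a peak of another SKI list had a median of 71.0 tags and 48.7% lay in the TSS class. The 38 recurring peaks that overlapped by 100 bp or less had a median of 66.5 tags and 42.1% lay there. Most extra peaks were far from that border. The median gap to the nearest peak of replicate 2 or control cells was 25441 bp (quartiles 6638 and 78546 bp). Within 1000 bp of such a peak lay 6.07% of extra peaks, within 10 kb 31.4%, and 20.4% were more than 100 kb from any.

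Extra peaks lay less at promoters and more in introns and between genes. In the authors' position column, where the TSS class is a window at a transcription start site (TSS) and the upstream class reaches to 5000 bp before it, per the file headers, 29.4% of extra peaks were in the TSS class (28.9 to 29.9). Of recurring peaks 49.2% were (48.4 to 49.9), and over all replicate 1 peaks the share was 35.2%. The difference was -19.8 percentage points (Newcombe interval -20.7 to -18.9). Intron was the most frequent class of extra peaks, at 33.7% against 23% of recurring peaks. Intergenic peaks made up 24.5% against 17.5%, the upstream class 6.72% against 5.19% and exons 5.67% against 5.16%. The TSS share was 52.4% in the list of replicate 2 and 48.0% in that of control cells, near the share of recurring peaks. In the RUNX1 list the TSS share was 23.5%.

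**Figure D1:**
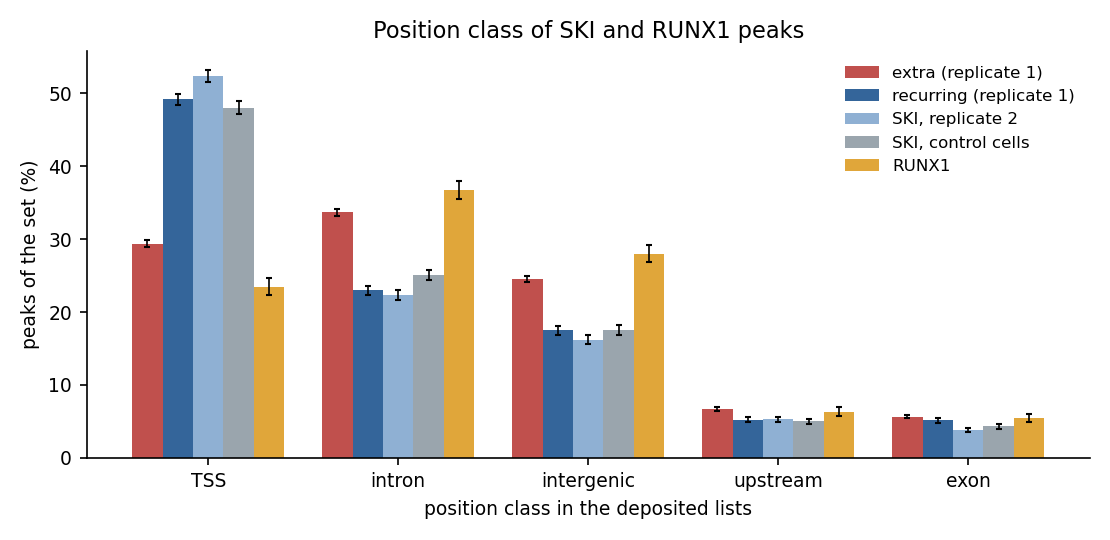
Share of peaks (%) in each position class of the deposited lists, for extra and recurring peaks of replicate 1, for the whole SKI lists of replicate 2 and control cells, and for RUNX1. Lines on the bars are 95% Wilson intervals. Extra peaks stand at 29.4% in the TSS class, below the 3 other SKI sets (48.0% to 52.4%) and above RUNX1 (23.5%). By the rule, those 3 SKI sets are largely the same regions.

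This shortfall at promoters depended on what strength was held equal. TSS peaks were wider and held more tags for a given fold enrichment: extra TSS peaks had a median of 90 tags over 780 bp at a fold enrichment of 14.3, and extra intron peaks 59 tags over 567 bp at 15.2. As a mean over 10 classes of equal fold enrichment, an alternative chosen after seeing the data, the difference in TSS share was -32.9 percentage points when each class was weighted by its extra peaks. With the same weights it was 3.83 over 10 classes of equal tags and 3.04 over 4 classes of width, so the direction turned. Those weights lean on classes of few tags, the lowest of which holds 21 recurring peaks. Weighted by recurring peaks, also chosen after seeing the data, the 3 values were -24.9, 10.7 and 6.35, in the same directions. In the class of 131 to 185 tags, for example, 44.8% of extra peaks (43.2 to 46.4) and 38.7% of recurring peaks (36.3 to 41.0) were in the TSS class. In the fold enrichment class of 15.7 to 18.8 the shares were 30.0% and 67.5%. Read the other way, at that fold enrichment 70.3% of TSS peaks and 92.0% of peaks elsewhere were extra, whereas at 131 to 185 tags 73.3% and 68.0% were.

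**Figure D2:**
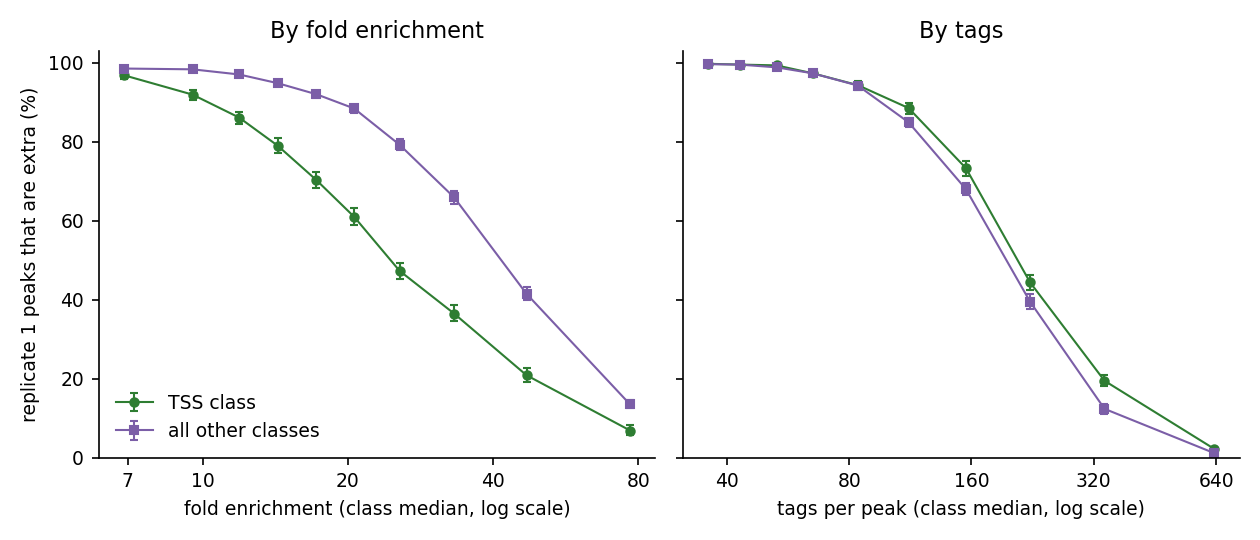
Share of replicate 1 peaks that are extra (%), in 10 classes of fold enrichment (left) and of tags (right), drawn at the class median on a log axis, for the TSS class and all other classes. Bars are 95% Wilson intervals. At equal fold enrichment the TSS curve lies below the other (70.3% against 92.0% in the class of 15.7 to 18.8), while at equal tags it lies slightly above from the class of 97 to 131 tags upwards (73.3% against 68.0% in the class of 131 to 185).

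Extra peaks also lay farther from the nearest TSS. The median distance was 5311 bp for extra and 2019 bp for recurring peaks. A summit within 250 bp of a TSS was found in 15.8% of extra peaks against 32.6% of recurring ones. The range of 1000 to 10000 bp held 40.2% against 31.0%, and 35.4% against 25.8% lay more than 10 kb away. Close to a TSS, the side of the summit was compared. Among extra peaks under 1000 bp away, 42.4% had their summit downstream of the TSS (41.4 to 43.4), and among recurring peaks 39.8% (38.7 to 41.0).

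**Figure D3:**
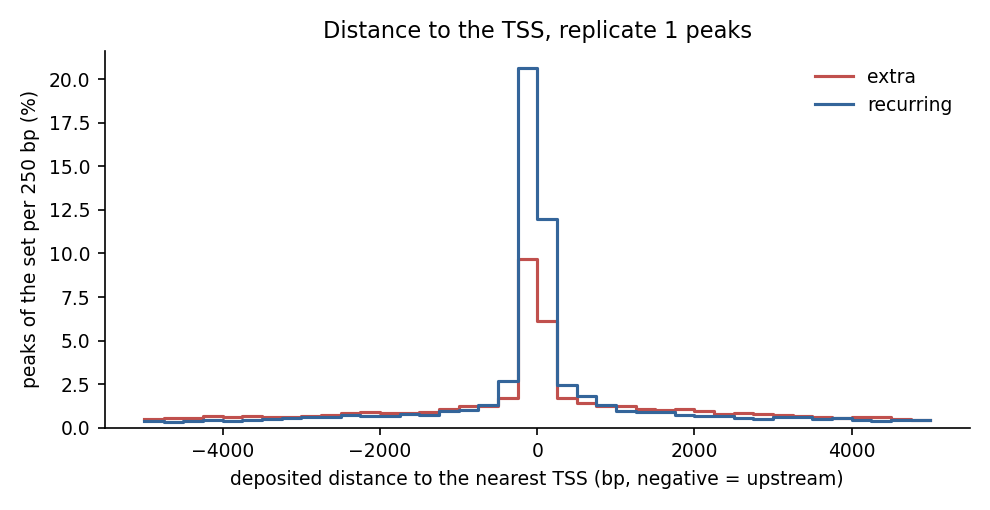
Percent of extra and of recurring peaks of replicate 1 in each 250 bp step of the deposited distance to the nearest TSS (bp, negative is upstream), shown to 5000 bp on either side. Both sets peak at the TSS, where recurring peaks are more frequent (32.6% against 15.8% within 250 bp).

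The nearest gene of an extra peak was protein-coding in 60.3% of cases, against 68.8% for recurring peaks. Pseudogenes were nearest to 12.9% against 8.59%, lincRNA genes to 10.5% against 8.80%, microRNA genes to 3.10% against 2.19% and antisense transcripts to 5.48% against 5.46%. Within the TSS class, extra peaks made up 57.1% of TSS peaks at protein-coding genes (56.3 to 57.9), 58.2% at antisense genes, 64.1% at lincRNA genes, 71.5% at pseudogenes and 77.8% (72.1 to 82.5) at microRNA genes. Tags moved with this: extra TSS peaks had a median of 96.5 tags at protein-coding genes, 78.5 at lincRNA genes, 70.0 at pseudogenes and 67.0 at microRNA genes, and the part of this in the shares was not tested.

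Over chromosomes 1 to 22 and X the share of extra peaks ranged from 60.9% on 22 to 81.8% on X (79.6 to 83.7), with a median of 69.6%. On X 12.8% of replicate 1 peaks recurred in replicate 2 and 15.9% in control cells. Chromosome 8 was close to X, with 81.1% extra (79.0 to 83.0), and 11.1% and 15.8% recurring in those lists. The median fold enrichment of extra peaks was 21.3 on X, 21.2 on 8 and 10.4 on 22. Their TSS share was lowest on 13 (11%) and highest on 19 (47.5%), the chromosome with the most genes for its length. Replicate 1 also had 60 peaks on unplaced contigs, 54 of them extra, and 9 on chromosome Y, all 9 of them extra.

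By fold enrichment, the strongest extra peaks lay mainly between genes. This depended on the measure of strength. In the highest of 10 classes of fold enrichment 18.9% of 628 extra peaks were in the TSS class. In the highest class of tags 71.1% of 97 were. Peaks below are ranked by fold enrichment. Named peaks exclude those wider than 5000 bp and those on chromosomes 8 and Y. The highest fold enrichment, 135.13 with 270 tags, was in an intron assigned to RP11-799O21.2 (chromosome 10, 6954247 to 6954916, hg19, as for all peaks). Its neighbours in the other lists were 14515 bp away in replicate 2 and 3560 bp away in control cells. The next, of 129.29 with 395 tags at LIMS1, the gene of an integrin-linked adaptor (chromosome 2, 109267841 to 109268640), missed a control-cell peak by 95 bp and one of replicate 2 by 308 bp, so it stands just outside the rule. Near NCF1B, a pseudogene copy of the neutrophil oxidase subunit gene NCF1, extra peaks of 124.96 and 107.67 held 686 and 529 tags. Reads of such near-identical copies may be shared out between them, so these values are uncertain. Of the 10 strongest, 7 were intergenic. These were nearest to NCF1B, RP11-622L21.1, RP11-791M20.1, RP11-580J4.1, CYSLTR1 (a leukotriene receptor gene, at -48631 bp from its TSS), MRPS33P3 and CTD-2320B12.2. The peak nearest MRPS33P3 (fold enrichment 115.41) was over 700 kb from the closest peak of either other list (739752 and 740907 bp).

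The strongest extra peak of the TSS class was at MIR128-2, one of a pair of genes that make the microRNA miR-128. It had a fold enrichment of 119.79 and 312 tags (chromosome 3, 35786385 to 35787689, 1079 bp downstream of the TSS listed for this gene), and a RUNX1 peak overlapped it. Whether transcription starts at the listed TSS of a microRNA gene was not tested. The closest peaks of the other SKI lists were 104701 bp (replicate 2) and 104621 bp (control cells) away. Its mature products are shown to identify it, from RefSeq (GRCh38.p14), with the seed, bases 2 to 8, in capitals.
hsa-miR-128-3p: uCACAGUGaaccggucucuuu
hsa-miR-128-2-5p: gGGGGCCGauacacuguacgaga

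Other TSS peaks were at RP11-44F14.1 (105.91) and SP110, an interferon-induced nuclear body gene (104.57, 252 bp downstream of the TSS). The upstream class was led by the second NCF1B peak, MBNL1, which encodes a splicing regulator (98.12), and RP11-177C12.1 (96.76). The exon class was led by CAMSAP2, a microtubule minus-end binding protein gene (104.54), BTLA, an inhibitory lymphocyte receptor gene (101.53), and the phosphate transporter gene SLC20A1 (95.19). The intron class held TMEM14E (112.49) after the RP11-799O21.2 and LIMS1 peaks.

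RUNX1 overlap is a measure from a library that the rule did not use. A RUNX1 peak overlapped 1094 extra peaks (2.83%, 2.67 to 3.0), against 24.5% of recurring peaks (23.9 to 25.2) and 9.21% of all replicate 1 peaks. The difference was -21.7 percentage points (Newcombe interval -22.4 to -21.0). It was present in every position class, at 1.69% against 14.2% in the TSS class, 3.62% against 34.6% in introns and 3.28% against 35.7% between genes. Overlap depended on where a peak recurred: it was 6.13% for peaks that recurred in replicate 2 alone, 19.9% for those in control cells alone and 33.4% for those in both.

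Among peaks of like strength the mean gap was smaller and in the same direction. Weighted by the extra peaks of each class, the mean difference was -3.73 percentage points over 10 classes of equal tags, -14.1 over 4 classes of width and -4.71 over 10 classes of fold enrichment. Weighted by recurring peaks, which lean on the strong classes, it was -16.1, -20.4 and -13.8. How much smaller the gap was thus depended on the weights. In the class of 271 to 442 tags 10.5% of extra peaks (8.63 to 12.7) and 22.7% of recurring peaks (21.5 to 23.9) carried RUNX1. In the class of 97 to 131 tags the shares were 4.68% (4.11 to 5.32) and 7.38% (5.73 to 9.46). In the lowest class, of 26 to 40 tags, 0.275% of extra peaks did and none of 21 recurring peaks.

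**Figure D4:**
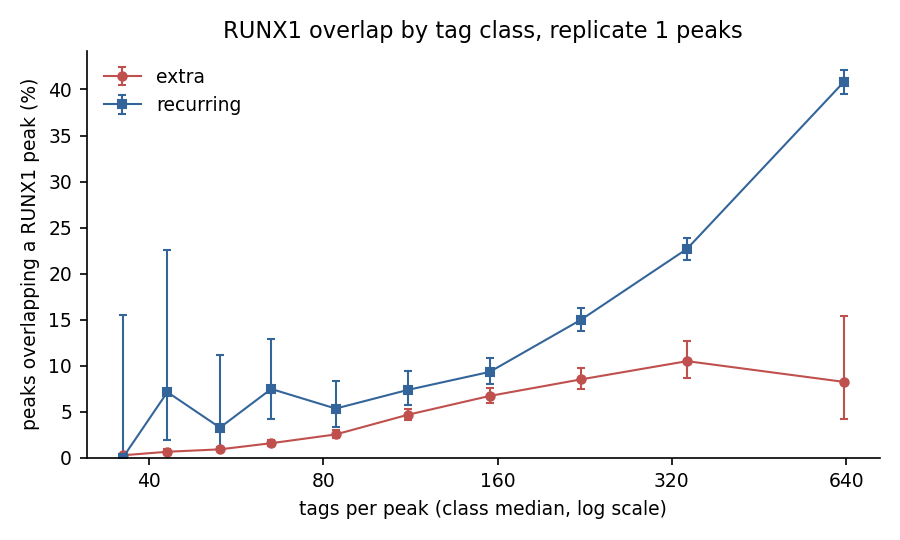
Share of replicate 1 peaks that overlap a RUNX1 peak (%), for extra and recurring peaks in 10 classes of tags, drawn at the class median on a log axis with 95% Wilson intervals. Except in the lowest class, where no recurring peak had RUNX1, the recurring curve lies above the extra one, by 40.8% against 8.25% in the highest class.

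The extra peaks with RUNX1 were the stronger ones and lay farther from genes' starts. Their medians were 133 tags and a fold enrichment of 29.1, against 65.0 and 14.7 for extra peaks without RUNX1. In introns were 43.1% of them and in the TSS class 17.6%, and their median distance to a TSS was 9524 bp, against 5201 bp. From the RUNX1 side, 1092 RUNX1 peaks (19.6%) met an extra peak and no recurring one, with a median RUNX1 fold enrichment of 16.5, against 19.8 for the 4091 RUNX1 peaks on recurring SKI peaks. The summits of the 2 proteins were close in both sets. The median distance was 24.0 bp at extra peaks, 92.0% of them within 100 bp, and 28.5 bp at recurring peaks, 82.6% within 100 bp. Only overlapping peaks were measured, so peak width bounds this distance. Extra peaks with RUNX1 had a median width of 735 bp, and all recurring peaks 1295 bp. The part of width in these values was not tested.

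By the worse of both ranks, the leading extra peaks with RUNX1 were these. An intronic peak nearest CAMK2D, which encodes a calcium/calmodulin-dependent kinase subunit, had SKI and RUNX1 fold enrichments of 96.42 and 113.55 with summits 17 bp apart (chromosome 4, 114557576 to 114558713). At LAMP2, a lysosomal membrane protein gene on X, the values were 95.69 and 193.62, and the summits were 15 bp apart. An intronic peak at SLCO4C1, an organic anion transporter gene, had 86.19 and 74.4. At the promoter of OTUD5, a deubiquitinase gene on X, they were 103.78 and 53.11, and near RN7SKP43 they were 76.68 and 72.96. Each of the 5 lay between 2950 and 70992 bp from the nearest peak of replicate 2 or of control cells.

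Extra peaks were the sole SKI peaks near many genes. A gene counted as reached when the centre of a peak was within 10 kb of one of its TSSs, rebuilt from the deposited distances. Of 13826 protein-coding genes with a rebuilt TSS, 5177 (37.4%, 36.6 to 38.3) were reached only by extra peaks, 7916 (57.3%) by a recurring, replicate 2 or control-cell peak, and 733 (5.30%) by no SKI peak. The 7916 included 5549 that also had an extra peak. A gene that was nearest to no peak has no rebuilt TSS, and RefSeq lists 20056 protein-coding genes in all, so these shares are not shares of the genome. The same status held for 43.5% of pseudogenes, 37.6% of lincRNA genes and 40.1% of microRNA genes with a rebuilt TSS. With a distance of 50 kb the number of protein-coding genes was 3256, and with replicate 1 held to the length of replicate 2 it was 658.

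Genes reached only by extra peaks were mostly reached at their start and by few peaks. An extra peak lay within 1000 bp of a TSS in 3991 of the 5177 (77.1%), and 2783 (53.8%) had 1 extra peak within 10 kb. Being reached at the start was not particular to these genes. A recurring, replicate 2 or control-cell peak lay within 10 kb of 7916 genes and within 1000 bp of 6194 (counted per symbol). Their number of peaks per gene was not compared. Over the 5177 genes, the strongest extra peak per gene had a median fold enrichment of 17.4 (quartiles 12.2 and 25.2) and a median of 101 tags. A RUNX1 peak lay within 10 kb of 179 of them (3.46%), against 24.0% of genes reached by a recurring, replicate 2 or control-cell peak and 15.1% of all 13826. This gap is partly built in. Of RUNX1 peaks 73.3% lay on a recurring peak, and genes with a recurring peak within 10 kb were left out of the 5177 by definition.

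The genes with the strongest such peak were IL31RA, a cytokine receptor gene, ST8SIA4, COL21A1, C10orf107, GALNT3, ARFIP1, MTL5, ZFHX3, RBMX2 and WWC2. IL31RA had an intronic peak of 102.99 with 240 tags (chromosome 5, 55152191 to 55152928) and a second one of 31.41. ST8SIA4, which encodes a polysialyltransferase, had 6 extra peaks, the strongest of 98.61 with 282 tags at 1009 bp from a TSS (chromosome 5, 100237381 to 100238478). The nearest peak of another SKI list was 1393368 bp from it. GALNT3, a gene of mucin-type glycosylation, had a single extra peak of 96.42 with 251 tags at 245 bp (chromosome 2, 166650331 to 166651563). The peak of ARFIP1, which encodes a membrane-binding partner of small GTPases, was 89.42 with 185 tags at -163 bp (chromosome 4, 153771335 to 153771939), and another of its 5 extra peaks overlapped RUNX1. The peak at COL21A1, a collagen gene, was 92.28 and overlapped RUNX1 but lay at -9675 bp. MTL5 had 86.55 at -38 bp, and ZFHX3, which encodes a large zinc finger and homeodomain factor, had 90.95 at 3298 bp. RBMX2 on X and WWC2 had 81.08 each. The closest of the 5 extra peaks of RBMX2 to a TSS, at 170 bp, had a fold enrichment of 4.65, so its strongest peak was not the one at its start.

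Promoter sequences are shown for the leading genes of this group with an extra peak within 250 bp of a TSS, to let the reader see what kind of promoter they hold. They are the 250 bases before the RefSeq start (GRCh38.p14, given 5′ to 3′ on the gene's strand), so their coordinates cannot be set beside the hg19 peaks. Capitals mark matches on either strand to a GC box (GGGCGG), the RUNX core (TGTGGT) or an ETS core (CCGGAAG). The SMAD box (GTCTG) was also searched and matched none of the 3.
ST8SIA4 (chr5:100903283-100903532, minus strand): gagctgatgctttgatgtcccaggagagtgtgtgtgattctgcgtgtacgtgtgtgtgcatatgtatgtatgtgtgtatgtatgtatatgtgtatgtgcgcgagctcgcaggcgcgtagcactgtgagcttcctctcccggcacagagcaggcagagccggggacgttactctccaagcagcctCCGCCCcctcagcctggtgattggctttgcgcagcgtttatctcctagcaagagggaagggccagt
GALNT3 (chr2:165794248-165794497, minus strand): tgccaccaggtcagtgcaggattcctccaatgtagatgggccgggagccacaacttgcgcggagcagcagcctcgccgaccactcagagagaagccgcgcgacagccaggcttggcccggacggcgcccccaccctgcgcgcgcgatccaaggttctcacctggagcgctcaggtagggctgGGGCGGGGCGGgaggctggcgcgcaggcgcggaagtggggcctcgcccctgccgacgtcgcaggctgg
ARFIP1 (chr4:152779704-152779953, plus strand): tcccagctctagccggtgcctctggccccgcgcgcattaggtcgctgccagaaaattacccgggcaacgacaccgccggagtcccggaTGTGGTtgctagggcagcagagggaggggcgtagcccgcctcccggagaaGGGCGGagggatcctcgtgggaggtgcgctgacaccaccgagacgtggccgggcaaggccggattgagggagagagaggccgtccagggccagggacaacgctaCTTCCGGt

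Each of the 3 holds a GC box, 2 overlapping ones in GALNT3, and ARFIP1 also holds a RUNX and an ETS core. They hold 13, 26 and 23 CpG dinucleotides, against a median of 17 over all 15843 protein-coding promoters of the table. Of those windows 56.0% hold a GC box, 8.89% a RUNX core, 11.8% an ETS core and 36.7% a SMAD box. A comparison of promoters between groups of genes was void, since the table held a promoter for 78.4% of the 5027 protein-coding genes that had an extra peak and no other SKI peak within 1000 bp of a TSS, under the 80% such a check needs. A match is a description of the letters, and RefSeq starts may differ from the Ensembl starts of the lists.

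The genes with the most extra peaks and no other SKI peak were SIRPG, WIPI1, PLB1, CD86 and FBXW11. SIRPG, a gene of the signal-regulatory protein family, had 12 extra peaks within 10 kb of a TSS, with fold enrichments from 5.50 to 28.93. WIPI1, an autophagy gene, and PLB1, a phospholipase gene, had 9 each, the strongest of 23.66 and 38.52. CD86, a costimulatory ligand gene of antigen-presenting cells, had 8, the strongest of 40.8 with 218 tags (chromosome 3, 121818679 to 121819888) at 1045 bp from a control-cell peak. FBXW11, a ubiquitin ligase subunit gene, also had 8, up to 63.56. None of these peaks overlapped RUNX1.

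Gene lists split by how their members were reached, and the shares below are to be read against the 37.4% of all protein-coding genes with a rebuilt TSS that were reached only by extra peaks. In the 12 lists together, 269 of 345 genes had a rebuilt TSS and 76 of these (28.3%) were reached only by extra peaks. The lowest shares were in the myeloid maturation list (4 of 34, 11.8%) and the TGF-beta and SMAD list (4 of 29, 13.8%). The highest were in the erythroid and megakaryocytic list (9 of 14, 64.3%) and the B and T lymphoid list (12 of 20, 60.0%), of which another 12 and 10 members had no rebuilt TSS. Extra peaks themselves supply rebuilt TSSs, so genes near no other peak enter these shares mainly through them. A high share is thus partly built in where many members have no rebuilt TSS. Over all members the counts were 9 of 26 and 12 of 30. The order of the lists also rested on the distance of 10 kb. Within 1000 bp of a TSS extra peaks alone reached 3 of 14 erythroid and megakaryocytic and 5 of 20 lymphoid genes. They alone reached 7 of 34 myeloid maturation, 6 of 29 TGF-beta and SMAD and 14 of 29 cell cycle genes, beside 5054 of all 13826 protein-coding genes. Within 50 kb the numbers were 3, 2, 0, 4 and 5 of the same totals, beside 3256 of 13826. Without the control-cell list the myeloid maturation number was 8 of 34, beside 6327 of 13826. Without replicate 2 the TGF-beta and SMAD number was 7 of 29, the cell cycle number 13 of 29 and the ribosomal protein number 16 of 28, beside 6591 of 13826.

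**Figure D5:**
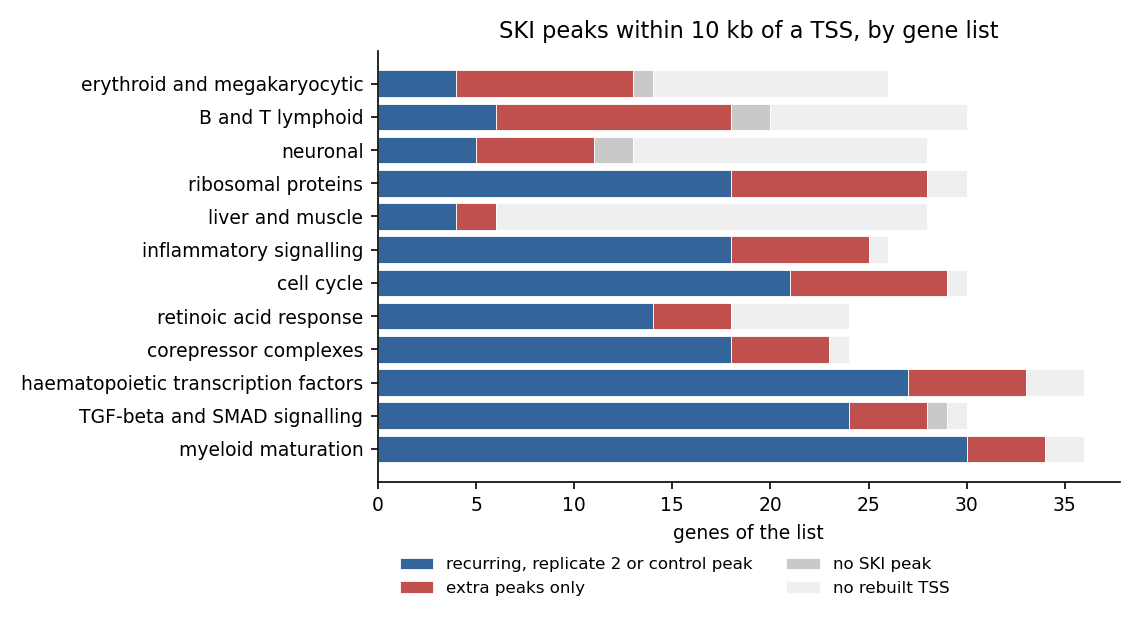
Number of genes in each of 12 lists that had a recurring, replicate 2 or control-cell peak within 10 kb of a TSS, extra peaks only, no SKI peak, or no rebuilt TSS, ordered by the share reached only by extra peaks. At this distance that share, of genes with a rebuilt TSS, runs from 11.8% for myeloid maturation to 64.3% for erythroid and megakaryocytic genes.

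Of TGF-beta and SMAD genes, 24 of 29 had a recurring, replicate 2 or control-cell peak. The 4 reached only by extra peaks were the ligand gene TGFB3 (47.48 with 210 tags, 550 bp from a TSS), LTBP1, which encodes a protein that binds latent TGF-beta (37.38 with 223 tags, 111 bp), the co-receptor gene TGFBR3 (5 extra peaks, up to 36.11) and SMAD5, a SMAD of the BMP branch (11.96 with 100 tags). Each of these except TGFBR3 had its strongest extra peak in the TSS class. No RUNX1 peak lay within 10 kb of any of them.

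Of myeloid maturation genes 30 of 34 had a recurring, replicate 2 or control-cell peak. The others were the formyl peptide receptor genes FPR2 (5 extra peaks, up to 43.29 with 277 tags) and FPR1 (3, up to 29.95 with 56 tags at -54 bp), the growth factor receptor gene CSF2RA (30.94 with 193 tags) and CEACAM8, a granulocyte surface glycoprotein gene (10.58 with 36 tags). The neighbouring genes FPR1 and FPR2 lie on chromosome 19 and CSF2RA lies on X. The CEACAM8 peak, at -1597 bp, had fewer tags than the 10th percentile of extra peaks (38).

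Haematopoietic transcription factor genes were reached only by extra peaks in 6 of 33 cases (18.2%). GATA1, the erythroid factor gene, had 1 extra peak of 56.24 with 156 tags in an intron (chromosome X, 48647802 to 48648726). EGR1, an immediate early gene, had its strongest at 46.51 with 445 tags (chromosome 5, 137799384 to 137801867). RUNX3, a RUNX1 relative, had its strongest at 31.89 with 499 tags over 2633 bp, 330 bp from a TSS (chromosome 1, 25254735 to 25257367). Both tag counts are above the recurring median of 332. TAL1 had 26.71 with 99 tags at -97 bp.

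Inflammatory signalling genes were reached only by extra peaks in 7 of 25 cases (28.0%). IL1R1, the interleukin-1 receptor gene, had 5, up to 36.67. RELA, an NF-kappaB subunit gene, had 25.54 with 405 tags at -174 bp. The cytokine gene IL1B had 19.15 with 96 tags at -13 bp and the endotoxin receptor gene TLR4 18.75 with 201 tags at -7 bp. Retinoic acid response genes gave 4 of 18 (22.2%). They were TGM2, a transglutaminase gene (24.92), CYP26A1 and CYP26B1, whose products break down retinoic acid (18.2 and 10.92), and CRABP2, which encodes a retinoic acid binding protein (12.43).

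Corepressor complex genes, among them those of the NCOR, SIN3 and histone deacetylase complexes, gave 5 of 23 (21.7%). NCOR1 had 3 extra peaks, up to 60.63 with 157 tags (chromosome 17, 16119911 to 16120705). The histone-binding subunit gene RBBP7 on X had 44.28 with 338 tags at -165 bp. GPS2, an NCOR complex subunit gene, had 4, the strongest of 23.67 at 6314 bp from its TSS. The deacetylase gene HDAC3 had 14.19 with 328 tags over 2415 bp. Cell cycle genes gave 8 of 29 (27.6%), among them the cyclin genes CCND1 (27.88 with 236 tags) and CCNA2 (23.7 with 201 tags), the mitotic kinase gene PLK1 (14.61) and the replication licensing gene CDC6 (12.44). Of ribosomal protein genes, which are among the most active in growing cells, 10 of 28 (35.7%) were reached only by extra peaks. RPS7 (25.35 with 144 tags, 6 bp from a TSS), RPL23 (20.97 with 242 tags), RPL32 (20.13) and RPS6 (16.92) were the strongest.

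In lists of other lineages, among B and T lymphoid genes the leading ones were the T cell adhesion gene CD2 (46.73 with 189 tags, with RUNX1 on the peak), BLNK (32.79), the B lineage factor gene PAX5 (28.49 with 199 tags at -361 bp) and CD247 (23.93). Among erythroid and megakaryocytic genes they included GATA1, ITGB3, an integrin subunit gene (17.47 at 126 bp), and GP1BA, a platelet glycoprotein gene (17.01). Neuronal genes were reached only by extra peaks in 6 of the 13 with a rebuilt TSS (46.2%), MAP2 (38.75 with 102 tags at -42 bp), SYN1 (21.31), GAD1 (17.39) and DLG4 (16.8) leading. Liver and muscle genes gave 2 of 6, the troponin gene TNNI2 (23.52) and MYOG (15.81).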

How the data were processed

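Peak lists of SKI (2 lists of unmodified HL60 cells, 1 of CRISPR/Cas9 control cells) and of RUNX1 (unmodified cells) were used as deposited. Groups came from the sample titles. The submitters' processing notes name the tools MACS 1.4, Bowtie2, deepTools and bcl2fastq and the build names GRCh37 and hg19. The background sample behind each list is not given in the sources used here. Per the file headers, a deposited list gives each peak's −log10 p-value (5.00 or more in these lists), its count of tags and its fold enrichment, a ratio to background. Position class, nearest Ensembl gene and distance to the TSS are the authors'. For 14 extra peaks no transcript was listed.

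Peaks overlapped when they shared 1 bp. TSSs (39081) were rebuilt for each transcript from summit and deposited distance, taking the median of its peaks, from which they differed by a median of 5 bp. Shares carry 95% Wilson intervals and differences of shares 95% Newcombe intervals. No test over peaks was run, since all come from 1 library. Of 13826 protein-coding genes, 97.6% matched a current RefSeq symbol. Overlap, gap and distance functions were tested on simulated data. The members and gene lists were chosen with earlier results of these data known. Named, leaving out peaks wider than 5000 bp and those on chromosomes 8 and Y, were the 10 strongest extra peaks by fold enrichment, the 3 strongest per position class, the 10 genes reached only by extra peaks with the strongest peak, the 5 with the most, up to 4 members per list, and the 5 leading extra peaks with RUNX1. A list member that the rule names is not reported here. Alternatives were other overlap rules, thresholds, lengths of the list, distances and classes of equal tags, width or fold enrichment, weighted by extra peaks unless said otherwise. Software was pandas 2.3.3, numpy 2.4.6, scipy 1.17.1 and matplotlib 3.10.9 under Python 3.11.15.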

Additional observations from a re-analysis of the deposited data

How the results depend on the processing

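The fold enrichment classes, and weights other than the number of extra peaks per class, were chosen after seeing the data; all others were planned. The difference in TSS share (extra minus recurring, -19.8 percentage points) turned to 3.83 over classes of tags and 3.04 over classes of width, 5.84 and 4.02 with classes weighted equally and 10.7 and 6.35 with weights by recurring peaks. It was -32.9 over classes of fold enrichment (-30.6 and -24.9 with those other weights), -18.4 by summits, -17.1 at −log10 p of at least 10, -9.16 with replicate 1 held to the length of replicate 2, and -22.3 to -16.2 when 1 of the other SKI lists was left out. The difference in RUNX1 overlap (-21.7) kept its direction in all alternatives run, at -3.73, -14.1 and -4.71 over classes of tags, width and fold enrichment, -7.38, -15.9 and -7.38 with equal weights, -16.1, -20.4 and -13.8 with weights by recurring peaks, -18.7 with a gap of 1000 bp, -23.6 at the stricter threshold, -18.5 with equal length and -26.4 to -21.6 with 1 list left out. The ratio of median tags (0.199) was 0.223 with the gap, 0.215 at the stricter threshold, 0.564 with equal length and 0.187 to 0.188 with 1 list left out. That of median width (0.463) was 0.472 by summits, 0.502, 0.473 and 0.736 under the gap, threshold and length settings and 0.445 to 0.455 with 1 list left out. With equal length, which holds 14431 peaks in place of 54841, there were 2471 extra peaks, 658 protein-coding genes reached only by them and 14 such list members. The full list gave 38710, 5177 and 76. With 1 list left out these were 42117 to 42438, 6327 to 6591 and 90 to 99. Within 50 kb, where more genes meet another peak, they were 3256 genes and 34 list members. Of 108 alternative counts for single gene lists, 78 were within 1.5 times the reported count and 30 were not. Library depth was not given, so its part in these values was not tested. No paired analysis was possible because extra and recurring peaks come from the same library and no test was run.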
